A study of Mus musculus with 7 samples.

Results

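The genes described here encode the glycosyltransferases and sulfotransferases that build and finish the sugar chains of mucins and other glycoproteins. They were chosen by symbol alone, as every row of the expression table whose name belongs to the Galnt, C1galt1, Gcnt, B3gnt, B3galt, B4galt, St3gal, St6gal, St6galnac, St8sia, Fut or Chst families, and 86 of the 31274 rows did. No measured value entered that pattern, but the set was proposed with estrus and diestrus results of the same libraries in view, so its counts are a description and support nothing about the set as a whole. RNA sequencing had been carried out on whole uteri of intact, unexposed CD-1 mice, an outbred laboratory stock, at 2 months of age. Uteri taken at diestrus gave 4 libraries and uteri taken at estrus gave 3, and both groups carried no treatment or engineered allele. The estrous cycle is the ovarian cycle of rodents, in which estradiol peaks shortly before estrus and the corpora lutea supply progesterone during diestrus. Whether every library is a different mouse is not stated in the labels, so p-values below reflect only the scatter between these libraries, which may be technical.

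Mucin-type O-glycans begin when a Galnt enzyme attaches N-acetylgalactosamine (GalNAc) to a serine or threonine of the protein. C1galt1 then adds galactose to give core 1, Gcnt enzymes add branches, and B3gnt, B3galt and B4galt enzymes lengthen the arms with N-acetylglucosamine (GlcNAc) and galactose. Chains end in sialic acid, added by the St3gal, St6gal, St6galnac and St8sia enzymes, in fucose, added by the Fut enzymes, or in sulfate, added by the Chst enzymes, several of which act on chondroitin and other glycosaminoglycans instead. In the uterus these chains coat the luminal epithelium, where they form part of the glycocalyx, and they are carried by secreted glandular mucins and glycoproteins.

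Values were FPKM, fragments scaled to transcript length and to the mapped fragments of a library, so levels can be compared between genes per length. Absolute depth is unknown because no read counts were used. Relative depth, read from the spacing of the lowest values, was 0.92 to 1.36 times that of estrus replicate 1. Diestrus replicate 1 stood apart from its group: on the first principal component of all tested genes it lay at -11.3, the other diestrus libraries at -36.3 to -61.9 and the estrus libraries at 47.0 to 59.9. The 10 uterine identity genes were all tested, the 5 Hox genes among them fell at estrus and none rose, and the list summed to 638.9 to 693.1 FPKM in diestrus and 368.9 to 397.6 in estrus. Of 20 markers of luminal and glandular epithelium, 14 rose and 1 fell at estrus, with summed levels of 1194 to 1729 FPKM in diestrus and 3826 to 4398 in estrus. Of 13 tested endothelial markers, 10 fell and none rose (344.3 to 759.7 against 221.7 to 271.9 FPKM), and of 14 stromal markers 5 fell and none rose (3277 to 6057 against 4095 to 5563 FPKM). Lymphocyte markers summed to 24.3 to 61.7 FPKM in diestrus and 18.1 to 23.2 in estrus (1 of 7 tested rose, 4 fell). Macrophage markers summed to 393.3 to 885 FPKM and 491.7 to 629.8 FPKM (2 of 11 rose, 4 fell), and smooth muscle markers to 2710 to 7051 FPKM and 3010 to 5366 FPKM (1 of 11 rose, 1 fell). None of 12 proliferation genes passed the test, with a median log2 fold change of 1.13. The oviduct markers summed to 58.5 to 113.1 FPKM in diestrus and 44.1 to 56.2 in estrus, the cornified epithelium markers to 5.55 to 9.48 and 22.5 to 98.7, and the ovary markers to 16.4 to 30.6 and 21.4 to 23.6. Of the tested markers, 1 of 3 cornified genes rose, and 1 of 4 oviduct and 2 of 3 ovary genes fell. Among the defining markers, Zp3 of the oocyte was listed at 0 in every library, and Cd3d, Krt1, Trp63 and Cyp19a1 stayed under 1 FPKM. These are picked members: 5 of 13 lymphocyte, 6 of 15 cornified and 7 of 10 ovary markers stayed under 1 FPKM in every library, and the others did not. In whole tissue a change in the number of cells of a type cannot be told apart from a change in RNA per cell. The share called was 75% of epithelial, 76.9% of endothelial, 71.4% of lymphocyte and 54.5% of macrophage markers. It was 50% of uterine identity, 35.7% of stromal and 18.2% of smooth muscle markers, and 31.1% of all tested genes. The part of these markers in the glycan enzyme results below was not tested.

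At estrus most of the called initiating and fucosylating enzymes were higher than at diestrus, and sulfotransferases moved in both directions. Sialyltransferases held 1 rise and 4 falls among 13 tested, and the 38.5% called lies near the 31.1% of all tested genes. Of the 86 members, 68 reached 1 FPKM in at least 3 libraries and were tested, 23 rose at estrus, 14 fell and 31 did not pass (limma on log2(FPKM + 1), Benjamini-Hochberg adjusted p under 0.05 over all 13920 tested genes). That was 54.4% of the tested members, where 31.1% of all tested genes were called, 17.2% higher and 14.0% lower. Estrus lay wholly above diestrus at 25 tested members and wholly below at 14, and over all tested genes such separation was seen at 21.9% (above) and 18.7% (below). The median log2 fold change was 0.11 over the tested members and 0.05 over all tested genes. The calls rested in part on estrus replicate 2: without it 13 members were higher and 3 lower, 16 of the original 37 calls remained, and 10.4% of all tested genes were called. Of the 37 called members, 19 kept the call in each of up to 16 alternative analyses that tested them, and 18 lost it in at least 1. Only 13 of the 19 were tested in all 16. Fut1, Galnt5 and Galnt13 are among the 19, although without estrus replicate 2 they were not tested and so had no call. Without diestrus replicate 1, 42 members were called, among them 7 that had no call with all libraries: Galnt1, Galnt15, Gcnt3, B3gnt2, B3gnt9, B3galt6 and Chst12. St6gal1 was gained without diestrus replicate 2, B4galt3 without diestrus replicate 3, B3gnt7 without estrus replicate 1 and St3gal2 without estrus replicate 3. Of the 18 members not tested, 12 stayed under 1 FPKM in every library, and 4 of those tested, Fut1, Galnt5, Galnt13 and Chst9, passed the filter only through the group where they were high. B3galt5 exceeded 1 FPKM in diestrus only in replicate 4 and Galnt6 only in replicates 2 and 3, so both also needed estrus libraries to be tested. Chst10 exceeded 1 FPKM in estrus only in replicate 3 and Chst4 only in replicates 1 and 2, so both needed diestrus libraries. The plot of fold changes by step shows the members that reached the test.

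**Figure D1:**
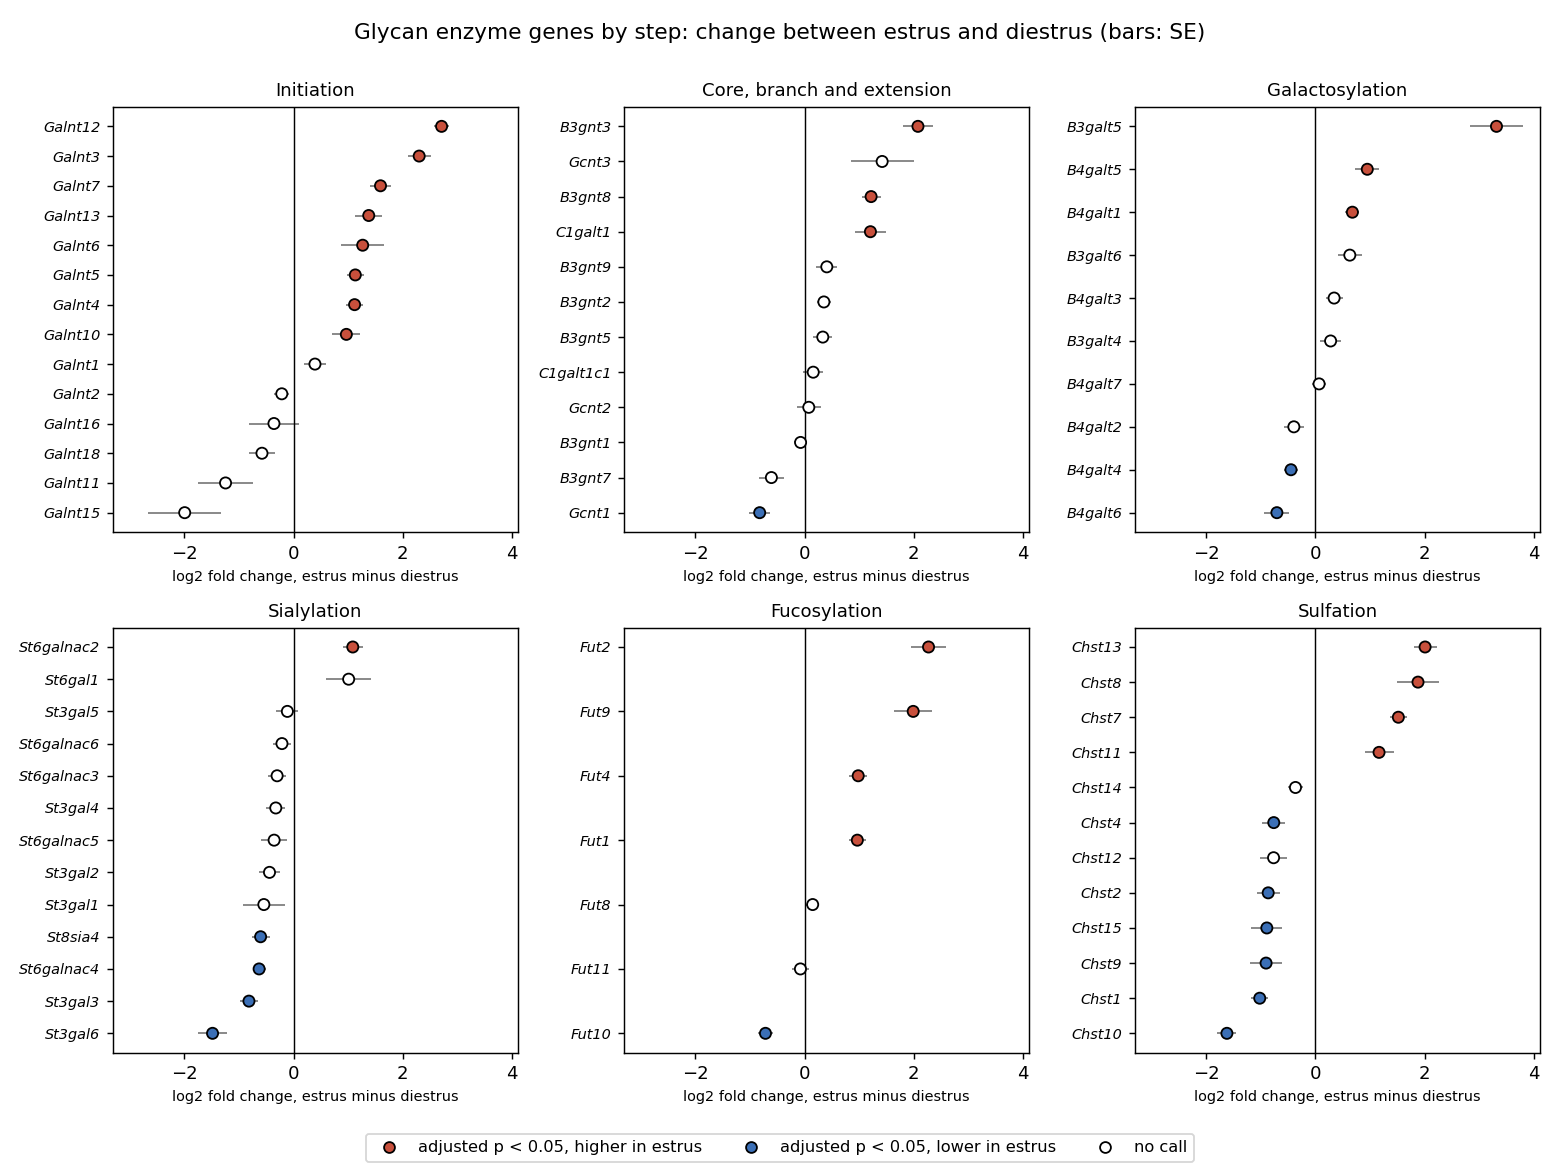
Log2(FPKM + 1) in estrus minus that in diestrus (points, with standard errors as bars) of the 68 tested members, in a panel for each step and sorted by size, with filled points for members at an adjusted p under 0.05. All 8 called Galnt genes lie to the right of 0, and the sulfation panel holds 4 called genes to the right and 6 to the left.

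By step, the 14 tested initiating genes held 8 that rose and none that fell (median log2 fold change 1.04), and the 8 include Galnt5 and Galnt13, which were tested only because they were high at estrus. Galnt6, also among the 8, needed estrus libraries to be tested as well. Among 12 genes of core, branch and extension 3 rose and 1 fell (median 0.34), and among 10 galactosyltransferases 3 rose and 2 fell (median 0.31). The share called was 33.3% in core, branch and extension, near the 31.1% of all tested genes, and 50% among the galactosyltransferases. Of 13 sialyltransferases 1 rose, 4 fell and 8 gave no call (median -0.36), and the 38.5% called lies near the 31.1% of all tested genes. Of 7 tested fucosyltransferases 4 rose and 1 fell (median 0.97), and of 12 sulfotransferases 4 rose and 6 fell (median -0.76). Fut1 among the rises and Chst9 among the falls were likewise tested only through the group where they were high. B3galt5 needed estrus libraries, and Chst10 and Chst4 diestrus libraries, to be tested. These counts and medians are therefore descriptions of the tested genes. Without estrus replicate 2 the initiating genes held 4 higher calls and the fucosyltransferases 3 higher. The sialyltransferases then held 1 call in each direction and the sulfotransferases 2 in each direction. Whether the steps differ from each other was not tested.

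Summed over all members of a step, the fucosyltransferases changed most in level. Their sum was 99.8, 62.8, 88.2 and 61.9 FPKM in diestrus replicates 1 to 4 and 172.5, 252.0 and 259.9 FPKM in estrus replicates 1 to 3, a ratio of group means of 2.92. Galactosyltransferases summed to 122.5 ± 6.24 FPKM (SD, n = 4) in diestrus and 177.7 ± 9.42 (SD, n = 3) in estrus, and core, branch and extension enzymes to 200.1 ± 23.4 and 285.7 ± 41.0. The groups did not overlap in these 3 sums. Initiating enzymes summed to 262.9 ± 34.1 and 308.8 ± 27.7 FPKM, sialyltransferases to 182.6 ± 10.3 and 172.9 ± 5.02, and sulfotransferases to 102.9 ± 9.54 and 117.2 ± 20.1. In the latter 3 steps the sums of the groups overlapped although single members changed several fold.

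**Figure D2:**
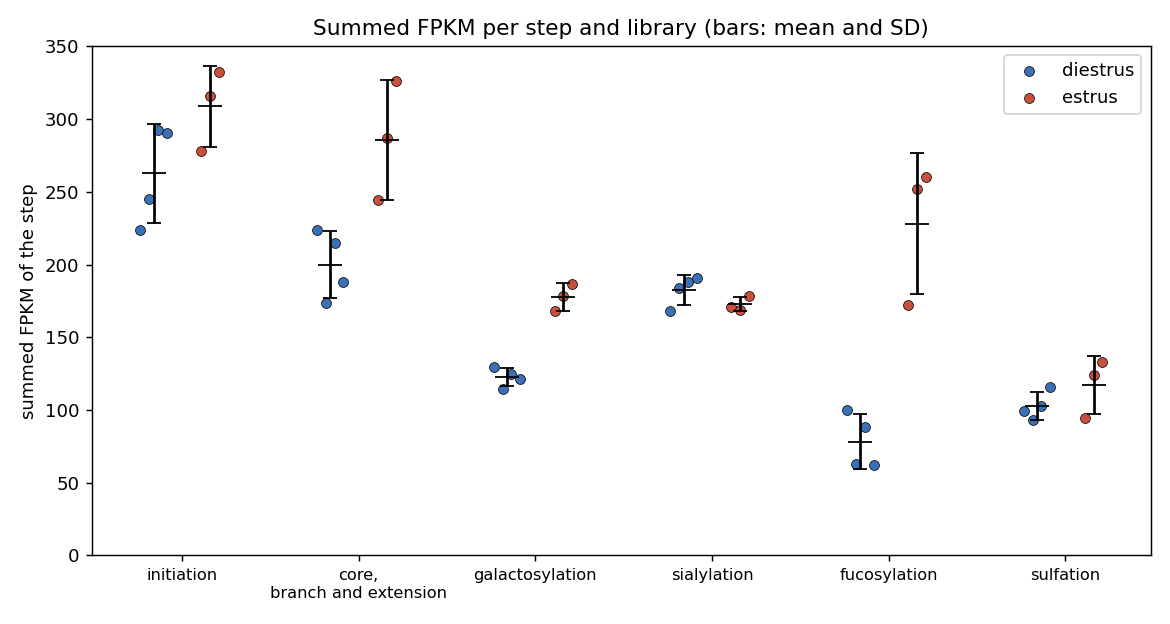
Summed FPKM of the members of each step in each library (points), with the mean and SD of 4 diestrus and 3 estrus libraries. The fucosylation sums are 61.9 to 99.8 FPKM in diestrus and 172.5 to 259.9 in estrus, and the sialylation sums of the groups overlap.

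The study also assayed binding of estrogen receptor alpha, progesterone receptor and Hif2a, which was not analysed here, and the letters of their recognition motifs were therefore searched in the 250 bases before each RefSeq gene start (GRCm38.p6, both strands, TATAAA on the strand of the gene only). Of the members, 65 had at least 1 window, 86 windows in all, among them 29 of the 37 called genes. The core hypoxia motif, ACGTG or GCGTG, was in 59.3% of the members' windows and in 38.6% of 32851 windows of all genes. The members' windows were also richer in G and C, with a median of 60.8% against 52.4%. AGGTCA, an arm of the estrogen response element, was in 5.81% against 14.0%, and the spaced palindrome GGTCANNNTGACC in 0 of 86 windows against 0.0639%. ACANNNTGT, of the progesterone and glucocorticoid response element, was in 5.81% against 5.84%, and TATAAA in 1.16% against 7.59%. Windows of members higher at estrus held the hypoxia motif in 61.9% of 21 cases, those of members lower at estrus in 53.3% of 15, and those of members tested without a call in 59.4% of 32. AGGTCA was in 4.76%, 6.67% and 6.25% of these same 3 groups of windows. A match in these letters is not a binding site. The windows shown each hold the motif marked in them, so they tell nothing about how common it is. Of the B3galt5 starts not shown, the next one downstream also holds the hypoxia motif and AGGTCA, and the last holds neither. Shown are the windows of 3 strongly increased members from 3 steps, with the hypoxia motif or its complement in capitals, and of Chst10, the called sulfotransferase with the largest log2 decrease, with AGGTCA in capitals and its hypoxia motif left in lower case. They are written 5′ to 3′ on the strand of the gene, and lie at chr8:57653056-57653305 (minus strand), chr16:96235551-96235800 (plus strand, the most upstream of its 3 starts), chr6:90325186-90325435 (minus strand) and chr1:38898161-38898410 (minus strand).
Galnt7: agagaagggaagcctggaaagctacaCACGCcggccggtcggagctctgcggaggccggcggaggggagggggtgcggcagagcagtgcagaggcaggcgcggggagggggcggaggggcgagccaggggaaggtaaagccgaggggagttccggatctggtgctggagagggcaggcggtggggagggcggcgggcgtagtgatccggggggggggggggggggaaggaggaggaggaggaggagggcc
B3galt5: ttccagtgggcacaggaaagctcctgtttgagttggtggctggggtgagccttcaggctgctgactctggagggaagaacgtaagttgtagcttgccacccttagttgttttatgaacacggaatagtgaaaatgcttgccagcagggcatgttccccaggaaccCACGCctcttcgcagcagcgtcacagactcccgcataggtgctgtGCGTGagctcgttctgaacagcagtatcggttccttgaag
Chst13: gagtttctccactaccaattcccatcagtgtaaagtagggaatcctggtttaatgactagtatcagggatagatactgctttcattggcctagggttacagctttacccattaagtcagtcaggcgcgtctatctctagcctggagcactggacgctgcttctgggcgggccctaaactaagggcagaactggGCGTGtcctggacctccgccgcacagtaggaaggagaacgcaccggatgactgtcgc
Chst10: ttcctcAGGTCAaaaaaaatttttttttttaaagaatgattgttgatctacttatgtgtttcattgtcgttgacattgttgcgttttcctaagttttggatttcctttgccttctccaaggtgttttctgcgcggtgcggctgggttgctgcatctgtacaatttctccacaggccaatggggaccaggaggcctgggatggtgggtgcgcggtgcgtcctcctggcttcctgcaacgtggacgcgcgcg

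Among the enzymes that start O-glycans, Galnt12, Galnt3 and Galnt7 rose most at well-detected levels. Galnt12 (GRCm38 chromosome 4, 47091894 to 47123058) stood at 5.69, 6.06, 5.95 and 4.23 FPKM in diestrus replicates 1 to 4 and at 43.1, 43.2 and 37.2 in estrus replicates 1 to 3. Values of other genes are listed in the same order, diestrus replicates first. The groups were far apart and each was narrow: the mean was 7.51 times as high in estrus (log2 fold change 2.71, SE 0.14, adjusted p = 0.000279), the smallest p of all members. Galnt3 (GRCm38 chromosome 2, 66082766 to 66125056), known for its action on the phosphate hormone Fgf23, stood at 6.92, 6.46, 9.43 and 4.44 FPKM in diestrus and 39.1, 34.1 and 36.3 in estrus, 5.36 times as high (log2 2.30, SE 0.21, adjusted p = 0.00124). Galnt7 (GRCm38 chromosome 8, 57523825 to 57653055), which prefers peptides that already carry GalNAc, was at 15.1, 10.04, 10.4 and 8.88 FPKM in diestrus and 29.98, 35.4 and 39.7 in estrus (log2 1.59, SE 0.19, adjusted p = 0.00207). In diestrus the highest value of Galnt7 was that of replicate 1.

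Galnt4 rose less, with 11.1, 9.78, 10.1 and 9.996 FPKM in diestrus and 17.8, 25.9 and 27.5 in estrus (log2 1.12, adjusted p = 0.00367). It shares 8.3% of its exon bases with Poc1b on the same strand, which had a log2 fold change of -0.11. Galnt10 was at 17.4, 14.9, 8.62 and 9.62 FPKM in diestrus and 19.9, 26.7 and 28.2 in estrus (log2 0.97, SE 0.25, adjusted p = 0.0264), and diestrus replicate 1 came close to the estrus range. Its call was lost without estrus replicate 2 (adjusted p = 0.103), estrus replicate 3 (0.0723), diestrus replicate 3 (0.0524) or diestrus replicate 4 (0.0664). Galnt5 and Galnt13 were low genes that reached the test only through their estrus values, and had to differ to be tested. Galnt5 was at 0.876, 0.419, 0.495 and 0.672 FPKM in diestrus and 2.38, 2.97 and 2.23 in estrus, and Galnt13 at 0.297, 0.151, 0.120 and 0.181 and 1.05, 2.36 and 3.23. Their log2 fold changes were 1.13 (adjusted p = 0.00322) and 1.38 (0.00681), and neither was tested without any one estrus library. Galnt6 ranged from 0.576 to 1.65 FPKM in diestrus and 2.52 to 8.76 in estrus, and its adjusted p of 0.0451 rose to 0.113 without estrus replicate 2, where it was highest. It too needed estrus libraries to be tested. Of the libraries left out in turn, only estrus replicate 3 could be spared with the call kept.

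The most abundant initiating transcripts of diestrus gave no call. Galnt15 was at 10.6, 35.8, 56.8 and 96.7 FPKM in diestrus, a spread of many fold within the group, and at 6.15, 7.64 and 14.7 in estrus (log2 -1.99, SE 0.67, adjusted p = 0.0563). Only diestrus replicate 1 overlapped the estrus range, and without it the adjusted p was 0.00582. Galnt11 stood at 29.6, 23.2, 102 and 44.8 FPKM and 11.3, 17.5 and 25.7 (log2 -1.24, adjusted p = 0.0905), with diestrus replicate 3 far above the others. Galnt1, a broadly expressed family member, had the highest mean of the step in estrus: 55.95, 43.2, 32.2 and 35.2 FPKM in diestrus and 54.8, 57.7 and 48.9 in estrus (log2 0.39, adjusted p = 0.155, and 0.026 without diestrus replicate 1). Galnt2, Galnt16 and Galnt18 also gave no call, between 8.32 and 43.03 FPKM over all libraries, and Galnt9 and Galnt14 stayed under 1 FPKM in every library.

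The make-up of the Galnt transcripts differed between the groups. Galnt12, Galnt3 and Galnt7 supplied 2.13%, 2.62% and 4.36% of the summed Galnt FPKM in diestrus, as means over libraries, and 13.4%, 11.9% and 11.3% in estrus. Galnt15 and Galnt11 went from 18.01% and 18.2% to 3.02% and 5.78%. Galnt1 held 16.4% and 17.6%. By mean share, Galnt12 had rank 11 of 16 in diestrus and rank 2 in estrus, after Galnt1. These shares vary within diestrus, where Galnt15 made up 4.72% in replicate 1 and 33.3% in replicate 4.

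**Figure D3:**
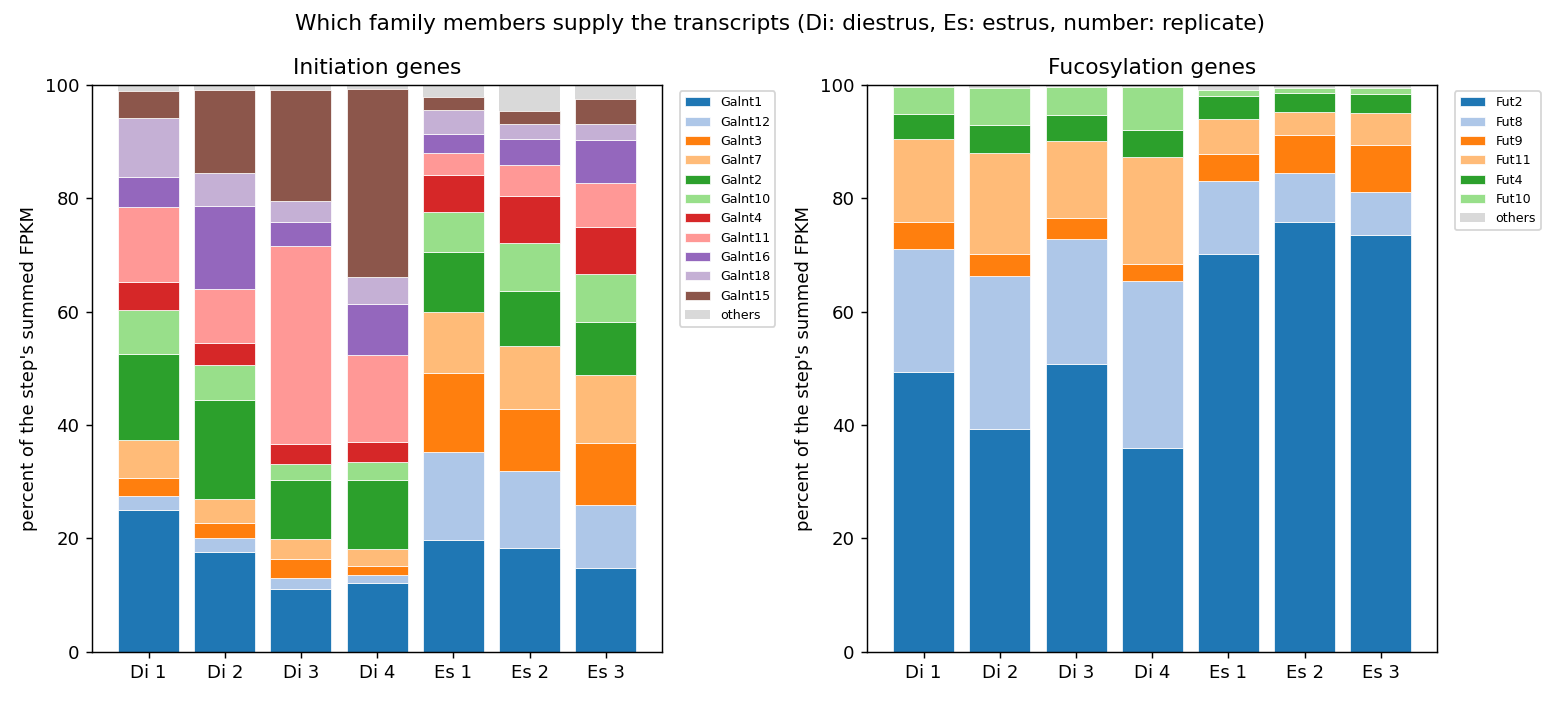
Percent of the summed FPKM of the initiation genes (left) and of the fucosylation genes (right) that single members supply in each library. Fut2 holds 35.9% to 50.8% of the fucosyltransferase sum in diestrus and 70.2% to 75.8% in estrus, and the Galnt12 share of the Galnt sum is 1.46% to 2.54% in diestrus and 11.2% to 15.5% in estrus.

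In the core, branch and extension step the core 1 synthase and 2 extension enzymes rose, and the core 2 branching enzyme Gcnt1 fell. The share of this step that was called, 33.3%, lay near that of all tested genes, 31.1%. C1galt1 (GRCm38 chromosome 6, 7845224 to 7872042) was at 19.8, 12.3, 26.3 and 13.9 FPKM in diestrus and 30.3, 44.6 and 52.1 in estrus (log2 1.21, SE 0.29, adjusted p = 0.0188). Every estrus value lay above every diestrus value, but the call was lost without estrus replicate 2 (adjusted p = 0.0796) or 3 (0.0558). Its chaperone C1galt1c1, known as Cosmc, which helps the synthase to fold, gave no call, at 15.3 to 25.1 FPKM in diestrus and 22.6 to 26.4 in estrus. Gcnt1 stood at 15.2, 17.7, 13.6 and 12.2 FPKM and 10.3, 6.28 and 7.20 (log2 -0.82, SE 0.19, adjusted p = 0.018), with an adjusted p of 0.0832 without estrus replicate 2 and 0.0505 without estrus replicate 3. Gcnt3, the branching enzyme of mucin-secreting epithelia, which makes core 2 and core 4, was at 40.6, 18.3, 8.21 and 5.78 FPKM in diestrus and 36.3, 32.9 and 49.9 in estrus. Diestrus replicate 1 lay within the estrus range and the other 3 diestrus libraries below it (log2 1.42, SE 0.58, adjusted p = 0.0955, and 0.0109 without diestrus replicate 1). Gcnt2, the I-branching enzyme, had the highest mean of the step in diestrus, at 37.1, 33.3, 59.9 and 41.9 FPKM, and was at 36.1, 46.7 and 51.8 in estrus (log2 0.08, adjusted p = 0.802), a difference whose sign turned in 3 alternatives.

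B3gnt3 (GRCm38 chromosome 8, 71691373 to 71702626), which extends core 1 and makes the backbone of ligands for L-selectin, rose most in this step. It was at 7.04, 10.1, 6.74 and 7.52 FPKM in diestrus and 21.5, 45.5 and 47.1 in estrus, 4.85 times as high (log2 2.08, SE 0.28, adjusted p = 0.00301). B3gnt8, which acts on branched N-glycans, was at 3.17, 2.64, 3.59 and 3.97 FPKM and 7.83, 8.22 and 11.4 (log2 1.22, SE 0.18, adjusted p = 0.00356). It shares 18.1% of its exon bases with Bckdha on the opposite strand, and whether counting used the strand is not given in the sources used here. Bckdha went the other way in value, from 45.1 ± 8.94 FPKM (SD, n = 4) to 31.4 ± 6.45 (SD, n = 3), without a call. B3gnt2, the main enzyme of polylactosamine, gave no call, at 29.1 to 39.7 FPKM in diestrus and 42.9 to 46.5 in estrus, and 58.6% of its exon bases are shared with a predicted gene. B3gnt6, the core 3 synthase, was not tested: it was at 0.286, 0.594, 6.47 and 10.8 FPKM in diestrus and 0.170, 0.140 and 0.173 in estrus, so that only diestrus replicates 3 and 4 exceeded 1 FPKM. Gcnt4 was likewise not tested, B3gnt4 and Gcnt7 stayed under 1 FPKM throughout, and B3gnt1, B3gnt5, B3gnt7 and B3gnt9 gave no call.

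Of the galactosyltransferases, B3galt5 changed most, and in log2 terms more than any other tested member. The enzyme caps GlcNAc with galactose to give type 1 chains, the backbone of Lewis a and Lewis b structures, mainly in epithelia. B3galt5 (GRCm38 chromosome 16, 96235801 to 96319859) was at 0.572, 0.689, 0.957 and 4.29 FPKM in diestrus and 14.00, 19.02 and 38.2 in estrus. Diestrus replicate 4 stood above the other 3 diestrus libraries, and the estrus values were themselves spread from 14.00 to 38.2 FPKM (log2 3.31, SE 0.49, adjusted p = 0.00387). Its share of the summed galactosyltransferase FPKM went from 1.34% to 13.2%. B3galt1 and B3galt2, the other type 1 chain enzymes of the set, stayed under 1 FPKM in every library, and B3galt4 and B3galt6, which act on gangliosides and on the glycosaminoglycan linker, gave no call.

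B4galt1, the main galactosyltransferase of lactosamine chains, was the most abundant of the step in both groups, at 39.4, 31.4, 33.5 and 39.5 FPKM in diestrus and 52.8, 59.4 and 61.3 in estrus (log2 0.68, SE 0.13, adjusted p = 0.00842, and 0.0503 without estrus replicate 2). B4galt5, the main lactosylceramide synthase of glycolipids, was at 14.8, 12.8, 12.5 and 10.7 FPKM and 29.5, 31.4 and 17.4 (log2 0.95, SE 0.22, adjusted p = 0.0163). Without estrus replicate 1 or 2 its adjusted p was 0.058 or 0.0779. Its relative B4galt6 fell, with 8.93 to 16.3 FPKM in diestrus and 5.51 to 8.62 in estrus, at an adjusted p of 0.0486. That call was lost without estrus replicate 2 (adjusted p = 0.156), estrus replicate 3 (0.124), diestrus replicate 3 (0.0865) or diestrus replicate 4 (0.107). B4galt4 fell, with 12.5 to 15.1 FPKM in diestrus and 9.27 to 11.3 in estrus (adjusted p = 0.0305), with an adjusted p of 0.131 without estrus replicate 2, 0.0782 without estrus replicate 3, 0.0613 without diestrus replicate 2 and 0.0788 without diestrus replicate 4. B4galt2, B4galt3 and B4galt7 gave no call.

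Among the sialyltransferases St6galnac2 rose, and St3gal3, St3gal6, St6galnac4 and St8sia4 fell. St6galnac2 (GRCm38 chromosome 11, 116676703 to 116695782), which adds sialic acid to the GalNAc at the root of O-glycans, was at 20.5, 21.3, 14.1 and 14.5 FPKM in diestrus and 40.8, 32.8 and 40.03 in estrus (log2 1.08, SE 0.18, adjusted p = 0.00574). Of 13 tested sialyltransferases it alone rose, although St6gal1 passed too without diestrus replicate 2. St6galnac1, the sialyl-Tn enzyme that lies next to it at a distance of 69242 bases, was not tested: it reached 1 FPKM only in estrus replicate 3 (0.0427, 0.0516, 0.0264 and 0.0227 FPKM in diestrus and 0.529, 0.0922 and 1.06 in estrus). St6gal1, which sialylates lactosamine of N-glycans, had the highest mean of the step in estrus, 40.6, 51.9 and 32.5 FPKM, against 29.6, 34.9, 10.6 and 13.9 in diestrus. Diestrus replicates 1 and 2 lay close to or within the estrus range (log2 1.008, SE 0.41, adjusted p = 0.0943, and 0.0498 without diestrus replicate 2).

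St3gal6 (GRCm38 chromosome 16, 58469742 to 58524260), which caps type 2 chains and takes part in making selectin ligands, was at 11.4, 13.7, 22.00 and 24.03 FPKM in diestrus and 5.67, 4.37 and 6.46 in estrus, 3.23 times as high in diestrus (log2 -1.48, SE 0.27, adjusted p = 0.00769). It shares 26.0% of its exon bases with Dcbld2 on the opposite strand, and Dcbld2 rose, with 14.8 ± 2.17 FPKM (SD, n = 4) in diestrus and 30.1 ± 7.19 (SD, n = 3) in estrus (log2 0.96, adjusted p = 0.00919). St3gal3 was at 8.63, 13.3, 8.78 and 10.4 FPKM and 5.54, 5.25 and 5.16 (log2 -0.82, SE 0.16, adjusted p = 0.0103, and 0.0523 without estrus replicate 2). St6galnac4, which makes disialylated core 1, was at 7.51, 6.56, 6.80 and 6.85 FPKM and 3.98, 3.79 and 4.62 (log2 -0.63, SE 0.12, adjusted p = 0.00903, and 0.0572 without estrus replicate 2). It lies 12 bases from St6galnac6, which gave no call.

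St8sia4, a polysialyltransferase, was at 2.99, 2.47, 3.55 and 3.08 FPKM in diestrus and 1.59, 1.26 and 2.13 in estrus (log2 -0.60, SE 0.16, adjusted p = 0.0294). Its groups did not overlap, but the adjusted p rose to 0.13 without estrus replicate 2, 0.0814 without estrus replicate 1, 0.0653 without diestrus replicate 3 and 0.0706 without diestrus replicate 4. St8sia2, the other polysialyltransferase, was not tested, at 0.618 to 1.46 FPKM in diestrus and 0.179 to 0.223 in estrus. St3gal1, which sialylates core 1, had the highest mean of the step in diestrus, with values of 17.9, 17.9, 52.2 and 38.6 FPKM against 17.8, 17.7 and 22.5 in estrus (log2 -0.54, adjusted p = 0.297). The higher diestrus mean came from replicates 3 and 4, and replicates 1 and 2 lay in the estrus range. St3gal2, St3gal4, St3gal5, St6galnac3, St6galnac5 and St6galnac6 gave no call. St6gal2 and St8sia6 were not tested, St8sia1 and St8sia5 stayed under 1 FPKM, and St8sia3 was listed at 0 in every library.

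Fut2 led the fucosyltransferases and was the most abundant of all 86 members in estrus. It encodes the secretor-type enzyme that adds fucose in alpha-1,2 linkage to galactose, which gives the H antigen of mucosal secretions, and the H antigen on uterine luminal epithelium is a long-known hormone-responsive glycan. Fut2 (GRCm38 chromosome 7, 45648591 to 45666394) was at 49.2, 24.7, 44.8 and 22.3 FPKM in diestrus and 121, 191 and 191 in estrus, 4.76 times as high (log2 2.27, SE 0.32, adjusted p = 0.00337). Diestrus replicates 1 and 3 were about level with each other and above replicates 2 and 4, and the lowest estrus value exceeded all of them. Its share of the summed fucosyltransferase FPKM was 43.9% in diestrus and 73.2% in estrus, while that of Fut8, the core fucosyltransferase of N-glycans, went from 25.1% to 9.70% with no call for Fut8 itself (16.9 to 21.8 FPKM in diestrus and 19.8 to 22.3 in estrus). Fut1, the other alpha-1,2 enzyme, lies 27531 bases from Fut2 on chromosome 7 and was low: 0.0664 to 0.405 FPKM in diestrus and 1.24 to 1.52 in estrus. It reached the test only through estrus, rose (adjusted p = 0.00479) and was not tested without any one estrus library.

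Both tested alpha-1,3 enzymes, which make Lewis x, also rose. Fut9 (GRCm38 chromosome 4, 25609333 to 25800003) was at 4.59, 2.40, 3.19 and 1.82 FPKM in diestrus and 7.99, 17.02 and 21.4 in estrus, 5.16 times as high (log2 1.99, SE 0.35, adjusted p = 0.00682). Fut4 was at 4.45, 3.03, 4.02 and 3.04 FPKM and 7.08, 8.46 and 8.79 (log2 0.98, SE 0.16, adjusted p = 0.00524). Fut7, the sialyl Lewis x enzyme of leukocytes, stayed under 1 FPKM in every library. Fut10 was the member that fell, at 4.68, 4.09, 4.45 and 4.65 FPKM in diestrus and 1.98, 2.18 and 2.89 in estrus (log2 -0.71, SE 0.14, adjusted p = 0.00953, and 0.0561 without estrus replicate 2). Fut11 gave no call.

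Of the 12 tested sulfotransferases 83.3% were called, where 31.1% of all tested genes were, and 2 calls in each direction were left without estrus replicate 2. Chst13 and Chst11, which sulfate chondroitin at position 4 of GalNAc, and Chst8, which sulfates the terminal GalNAc of glycoprotein hormone chains, rose together with Chst7, a GlcNAc and GalNAc 6-O sulfotransferase. Chst13 (GRCm38 chromosome 6, 90308351 to 90325185) was at 1.58, 0.555, 1.47 and 1.43 FPKM in diestrus and 8.09, 9.04 and 6.74 in estrus, 6.31 times as high (log2 2.01, SE 0.21, adjusted p = 0.00147). Chst7 (GRCm38 chromosome X, 20058963 to 20099991) was at 2.95, 2.63, 2.33 and 2.11 FPKM and 7.71, 11.02 and 8.54 (log2 1.52, SE 0.16, adjusted p = 0.00147). Both sets of estrus values were at least several FPKM above every diestrus value. Chst8 was at 9.76, 2.73, 5.33 and 7.07 FPKM and 14.8, 29.1 and 30.8 (log2 1.88, SE 0.39, adjusted p = 0.0122, and 0.0593 without estrus replicate 2). Chst11 was at 22.5, 15.00, 11.9 and 10.6 FPKM and 25.9, 35.5 and 40.6 (log2 1.16, SE 0.27, adjusted p = 0.0165), with diestrus replicate 1 close to the lowest estrus value. Without estrus replicate 2 or 3 its adjusted p was 0.073 or 0.0504.

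Chst10 (GRCm38 chromosome 1, 38863867 to 38898177), which sulfates glucuronic acid to make the HNK-1 epitope, had the largest log2 decrease of the called sulfotransferases. It was at 4.95, 4.26, 3.68 and 6.15 FPKM in diestrus and 0.768, 0.753 and 1.04 in estrus, 5.57 times as high in diestrus (log2 -1.62, SE 0.17, adjusted p = 0.00154). Because its estrus values lay near or under 1 FPKM, Chst10 passed the filter through its high diestrus values. Chst1, the galactose 6-O sulfotransferase of keratan sulfate, was at 3.41, 4.39, 3.37 and 4.33 FPKM and 1.16, 1.73 and 1.32 (log2 -1.02, SE 0.15, adjusted p = 0.00407). Chst2, a GlcNAc 6-O sulfotransferase of selectin ligands, was at 9.01, 8.35, 9.73 and 6.54 FPKM and 4.37, 2.86 and 5.47 (log2 -0.87, SE 0.21, adjusted p = 0.02, 0.079 without estrus replicate 2 and 0.0506 without estrus replicate 1). Chst4, the related enzyme of high endothelial venules, fell, with 1.99 to 2.98 FPKM in diestrus and 0.458 to 1.46 in estrus, at an adjusted p of 0.0294, and the call was lost without estrus replicate 2 (adjusted p = 0.0878), estrus replicate 3 (0.0657), diestrus replicate 3 (0.0547) or diestrus replicate 4 (0.0734). Chst4 too needed diestrus libraries to be tested. Thus of the 4 tested enzymes that sulfate position 6 of galactose or GlcNAc, Chst1, Chst2 and Chst4 fell and Chst7 rose.

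Chst15 and Chst9 passed narrowly. Chst15, which adds sulfate at position 6 of 4-sulfated GalNAc, was at 3.45 to 8.47 FPKM in diestrus and 2.43 to 3.58 in estrus, and its groups overlapped (adjusted p = 0.0464, 0.154 without estrus replicate 2). Of the libraries left out in turn, diestrus replicate 1 alone could be spared with the call kept. It shares 17.9% of its exon bases with a predicted antisense gene. Chst9, the relative of Chst8, was at 0.820 to 2.70 FPKM in diestrus and 0.0955 to 0.852 in estrus, reached the test only through diestrus, and had an adjusted p of 0.0485. It lost the call without estrus replicate 2 (adjusted p = 0.151), 3 (0.127) or 1 (0.0503), and the gene was not tested without diestrus replicates 1, 2 or 3. Chst12, a chondroitin 4-O sulfotransferase and the most abundant transcript of the step in diestrus, was at 24.1, 34.5, 42.7 and 53.2 FPKM in diestrus and 18.8, 21.2 and 24.6 in estrus (log2 -0.77, SE 0.25, adjusted p = 0.0528, and 0.00905 without diestrus replicate 1). It supplied 37.2% of the summed sulfotransferase FPKM in diestrus and 18.5% in estrus, against 14.8% and 28.9% for Chst11 and 6.001% and 20.7% for Chst8. Chst14 gave no call, and Chst3 and Chst5 stayed under 1 FPKM in every library.

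**Figure D4:**
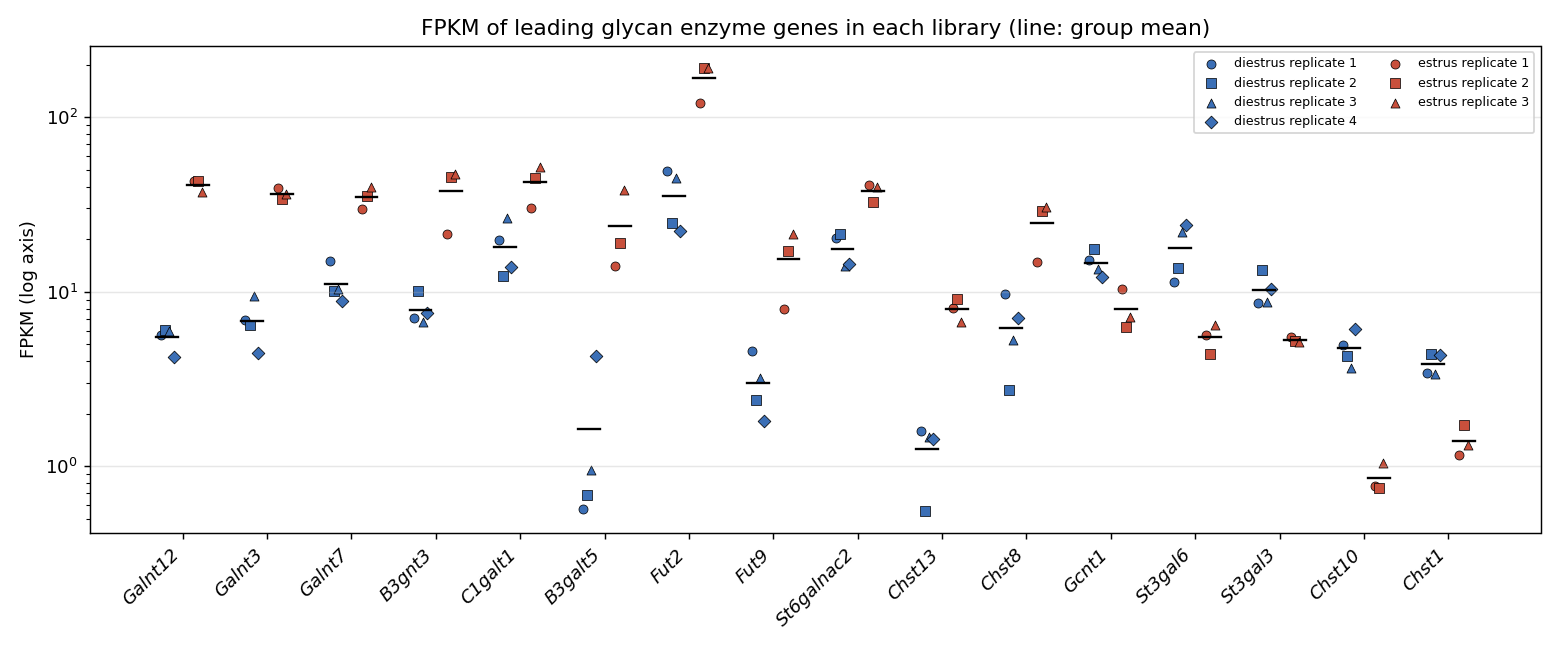
FPKM of 16 members in each library on a log axis, with a line at each group mean and a marker shape for each replicate number. The 16 genes were picked from the called members, so that their groups do not overlap is no further result. Over all tested genes estrus lay wholly above diestrus at 21.9% and wholly below at 18.7%. B3galt5 has the widest spread of the 16 within diestrus by ratio, from 0.572 to 4.29 FPKM.

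Genes that act beside these enzymes were taken from lists of donor, acceptor, lectin and other glycan genes, 184 genes in the table, of which 142 were tested, 43 rose and 21 fell (45.1% called, against 31.1% of all tested genes). Without estrus replicate 2 the counts were 14 and 6. The share called was 38.9% for hexosamine and galactose donors, 36.4% for sulfate donors and 35.7% for lectins, all near that of all tested genes, and lower, 20%, for sialic acid genes. For genes of fucose donors and fucosidases it was 44.4%. Of 18 genes of hexosamine and galactose donors 6 rose and 1 fell. The UDP-GlcNAc synthesis enzyme Uap1 was at 30.6 ± 7.37 FPKM (SD, n = 4) in diestrus and 70.1 ± 3.88 (SD, n = 3) in estrus (log2 1.21, adjusted p = 0.00596), and the Golgi carriers Slc35a3 and Slc35a2 had log2 fold changes of 1.40 and 1.09. Of 9 genes of fucose donors and fucosidases 4 rose and none fell: Gmds and Tsta3, which make GDP-fucose, by 1.23 and 0.63, the GDP-fucose carrier Slc35c1 by 1.04 and the fucosidase Fuca2 by 1.24. Of 10 sialic acid genes 2 rose, Cmas, which activates sialic acid, by 0.73 and the sialidase Neu1 by 0.64. Of 11 sulfate donor genes 4 rose and none fell, among them the sulfate transporter Slc26a1 with a log2 fold change of 1.83, the Golgi carrier Slc35b3 with 0.61 and the phosphatases Impad1 and Bpnt1 with 0.75 and 0.58.

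Among 11 tested mucin acceptors 4 rose and 5 fell. The share called was 81.8% for mucin acceptors and 57.1% for genes of N-glycan synthesis, against 31.1% of all tested genes. It was 42.3% for glycosaminoglycan chain genes and 40% for other O-glycan transferases, which lie closer to that of all tested genes. Muc1, the main mucin of the uterine glycocalyx, was at 50.6 ± 23.7 FPKM (SD, n = 4) in diestrus and 259 ± 75.8 (SD, n = 3) in estrus (log2 2.45, adjusted p = 0.00864), Muc4 at 7.17 ± 4.22 and 76.8 ± 27.5 (log2 3.39, adjusted p = 0.00369) and Muc20 at 4.51 ± 2.46 and 43.04 ± 13.9 (log2 3.05, adjusted p = 0.0025). Podxl, a sialomucin of endothelium and epithelium, fell from 45.9 ± 6.15 to 22.9 ± 0.717 FPKM (log2 -0.96, adjusted p = 0.00279). Of 28 tested genes of N-glycan synthesis and branching 14 rose and 2 fell, with log2 fold changes of 0.84 for Alg9, 0.65 for Mgat2, 0.54 for Man1b1 and -0.87 for Man2a2. Other O-glycan transferases held 1 rise, Pomt1 (0.64), and 5 falls in 15, among them B4galnt4 (-1.64), Ggta1 (-1.47) and Lfng (-0.85). The 26 tested genes of glycosaminoglycan chains gave 6 rises and 5 falls, with log2 fold changes of -1.04 for Chpf, 1.13 for Ugdh, -0.72 for Xylt2 and -1.20 for Sulf1. Of 14 tested glycan-binding lectins 2 rose, Lgals9 (1.14) and Lgals12 (1.24), and 3 fell, among them Selp (-0.83) and Cd33 (-0.82). Some of these acceptors and lectins are made by endothelial or immune cells, whose marker sums are given above.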

How the data were processed

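Libraries had been prepared with an Illumina TruSeq RNA kit, per the labels' protocols. The authors deposited the values as FPKM. Per the submitters' processing notes, the tool TopHat2 2.0.4 and the build mm10 are listed, with no role given. Which program, annotation and strand setting produced the FPKM is not given in the sources used here. A few very abundant transcripts can lower all other FPKM of a library: the share of summed FPKM in the 10 highest rows was 33.7% to 38.2% for estrus libraries, 34.2% for diestrus replicate 1 and 12.1% to 18.7% for the remaining diestrus libraries. Median-ratio scaling, which is less sensitive to such rows, kept all 37 calls of members. Since these are no read counts, log2(FPKM + 1) was tested with limma 3.58.1 (R 4.3.3) for rows that reached 1 FPKM in 3 or more of 7 libraries, with an intensity trend, a 2-group design without a block and two-sided Benjamini-Hochberg adjusted p-values (threshold 0.05). This scale understates changes of low genes. The fit was tested on simulated data.

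Samples were grouped by the titles. The members, their steps and all gene lists were chosen with earlier results of these data known. Members given in every library are the called ones with a mean of at least 1 FPKM (the 30 with the smallest p), those with the highest mean of their step in either group, and those without a call but with a log2 fold change of at least 1 in size. Of other lists up to 4 genes with the smallest p are named, except any not reported here, and the Dcbld2, Bckdha and Poc1b values and the markers named as low were chosen after their values were seen. Exon overlaps and positions come from GENCODE and promoters from RefSeq, both on GRCm38, the assembly called mm10. The alternatives were other pseudocounts, filters, scalings and moderation, a replicate block, and fits without each library in turn. Plots were made in matplotlib 3.10.9 (Python 3.11.15).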

Additional observations from a re-analysis of the deposited data

Results flagged for a closer look

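Among 52 group values screened for a library far from the other 3 of diestrus, 2 stood out, and chance alone marks about 1 in 20 groups. B3galt5 was at 4.295 FPKM in diestrus replicate 4, against 0.572 to 0.957 in the other diestrus libraries, a gap of 0.897 of the whole range of the group. Chst13 was at 0.5554 FPKM in diestrus replicate 2, against 1.43 to 1.58 in the others, a gap of 0.852 of the range. Chst13 kept its call without diestrus replicate 2. B3galt5 was also called without diestrus replicate 4, but that was its diestrus value closest to estrus, so the kept call is no support. Without that library B3galt5 stayed under 1 FPKM in diestrus and was tested only through estrus.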

How the results depend on the processing

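The counts of called members stayed within 1.5 times of 23 higher and 14 lower under pseudocounts of 0.1 and 5, no filter, median-ratio scaling, quantile normalization, no trend and robust moderation. With a mean of at least 5 FPKM required, 7 members were lower, as were 12 pathway genes and 1181 of all genes, with fewer genes tested. A replicate block gave 8 lower members, 21 higher and 11 lower pathway genes, and 1299 higher and 982 lower of all genes. Same-numbered libraries correlated at 0.198, 0.0243 and 0.169 in their deviations from the group means, and other pairs at -0.326 to 0.267. Not every library correlated best with its own number. So few pairs cannot tell whether the replicate numbers pair the libraries. Among the genes named above, the block ended the calls of Galnt10, Chst11, Fut10, St6galnac4, St8sia4, B4galt4, B4galt6, Chst4, Chst15 and Galnt6, and Galnt15 passed under it. Leaving out single libraries gave 13 to 27 higher and 3 to 15 lower members, 14 to 46 higher and 6 to 26 lower pathway genes, and 854 to 2866 higher and 579 to 2445 lower of all genes, each lowest without estrus replicate 2 and for the members highest without diestrus replicate 1. The cause was not tested. Of the named members, Gcnt2 changed sign, to log2 fold changes of -0.1006 with quantile normalization, -0.0308 without diestrus replicate 2 and -0.0315 without estrus replicate 3, its values without single libraries lying between -0.0315 and 0.2456. Quantile normalization also ended the calls of Chst4, Chst9, Chst15 and St8sia4 and let Chst12 pass. Galnt6, B4galt6, Chst9 and Chst15 were not called with a pseudocount of 5 or without a filter, and St8sia4 not without a filter. Depth is unknown, so for members under 1 FPKM a difference could not be assessed.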

Other observations

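Some members reached 1 FPKM in too few libraries for the test, and their values are given here without one. Core 3 synthase B3gnt6, already described, was the highest of them, at 6.47 and 10.8 FPKM in diestrus replicates 3 and 4 and under 1 FPKM in every other library. St8sia2, a polysialyltransferase, was at 0.618, 1.46, 0.720 and 0.960 FPKM in diestrus, by replicate number, and 0.179, 0.223 and 0.185 in estrus, and with no filter on low values it passed. St8sia6, which adds a further sialic acid to O-glycans, was at 0.837 to 1.61 FPKM in diestrus and 0.410 to 0.626 in estrus, and the core 2 enzyme Gcnt4 at 0.276 to 1.28 and 0.131 to 0.186. In these 3 genes every diestrus value was above every estrus value, as for Galnt9 at 0.0767 to 0.562 and 0 to 0.0242 FPKM. St6galnac1 went the other way, at 0.0227 to 0.0516 FPKM in diestrus and 0.0922 to 1.06 in estrus. Over all tested genes estrus lay wholly below diestrus at 18.7% and wholly above at 21.9%, and for untested genes no such share was counted. Galnt9 is too low for its difference to be assessed, and nothing is concluded from the separation of the others.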
